A study of Mus musculus with 19 samples.

Results

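The genes described here are the atypical chemokine receptors Ackr1, Ackr2, Ackr3 and Ackr4, the related receptor Ccrl2, and the signalling receptor Cxcr4 with its chemokine ligand Cxcl12, in endothelial cells sorted from mouse lymphoid tissue. They were chosen by name: a probe set was taken where the platform annotation gave it a single gene symbol and that symbol was 1 of these 7. Each of the 7 genes had 1 such probe set, so 7 of the 19938 genes tested are described. The 19 arrays held RNA of adult Balb/c mice aged 6 to 8 weeks, males and females mixed in equal parts, with no genetic change or treatment in the labels.

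High endothelial cells (HEC), the lining of the venules through which lymphocytes enter lymphoid tissue, came from peripheral lymph nodes (4 arrays), from mesenteric lymph nodes sorted as MAdCAM1+/PNAd+ (2 arrays) or as MAdCAM1+ (2 arrays), and from Peyer's patches (3 arrays). Capillary endothelial cells came from peripheral nodes (3 arrays), mesenteric nodes (2 arrays) and Peyer's patches (3 arrays). MAdCAM1 and PNAd are the surface addressins that lymphocytes bind on high endothelium, and the labels give the sort markers of the mesenteric HEC alone. The labels do not say which arrays came from separate animals or sorts, so the p-values below measure only how these samples vary, and that variation may be technical. Fewer cells of a type and less RNA per cell cannot be told apart in such samples.

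Chemokines guide leukocytes by binding receptors that signal through G proteins. Atypical chemokine receptors bind chemokines without classical G protein signalling and take them up, carry them across cells or present them, and so shape how much chemokine lies on a vessel wall. Cxcl12 acts through Cxcr4 and is also bound by Ackr3, and this axis is known for holding leukocytes in tissue and for arterial patterning of vessels. In lymphoid tissue, chemokines displayed on high endothelium help lymphocytes to stop and leave the blood.

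The arrays do not read promoters. The 250 bases before the annotated start are shown for the 5 genes with the greatest HEC to capillary differences, so that members that move the same way can be set side by side. They are from RefSeq (build GRCm38.p6), in which 7 of 7 members were matched with 9 promoter entries. Capitals mark matches, on either strand, to TGGGAA (the core bound by RBPJ, the DNA-binding partner of Notch), AGGTCA (a nuclear receptor half-site, also bound by NR2F factors), GCGTG (the core bound by hypoxia-inducible factors), TATAAA (the TATA box) and the NF-kB consensus.

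Ackr1, chr1:173333504-173333753, minus strand: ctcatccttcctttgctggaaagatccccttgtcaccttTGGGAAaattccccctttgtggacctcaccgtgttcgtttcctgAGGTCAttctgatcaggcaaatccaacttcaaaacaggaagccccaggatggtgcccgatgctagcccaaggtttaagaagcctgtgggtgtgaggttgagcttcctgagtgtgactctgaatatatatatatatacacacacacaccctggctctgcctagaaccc
Ackr2, chr9:121898105-121898354, plus strand: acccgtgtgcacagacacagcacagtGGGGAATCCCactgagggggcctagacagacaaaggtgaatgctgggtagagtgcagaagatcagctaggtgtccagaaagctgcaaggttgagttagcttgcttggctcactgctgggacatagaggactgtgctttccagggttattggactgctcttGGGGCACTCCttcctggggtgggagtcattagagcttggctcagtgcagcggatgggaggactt
Ackr3, chr1:90203730-90203979, plus strand: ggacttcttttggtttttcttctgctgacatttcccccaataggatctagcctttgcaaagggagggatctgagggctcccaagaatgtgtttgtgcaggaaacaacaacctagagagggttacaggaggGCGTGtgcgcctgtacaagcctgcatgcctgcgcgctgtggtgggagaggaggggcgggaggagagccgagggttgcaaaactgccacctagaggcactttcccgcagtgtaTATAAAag
Cxcr4, chr1:128592300-128592549, minus strand: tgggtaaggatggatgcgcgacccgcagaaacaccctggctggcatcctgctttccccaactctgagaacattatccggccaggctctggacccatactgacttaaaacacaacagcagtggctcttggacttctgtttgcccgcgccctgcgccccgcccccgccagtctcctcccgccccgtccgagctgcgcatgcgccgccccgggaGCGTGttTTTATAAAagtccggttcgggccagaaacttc
Cxcl12, chr6:117168285-117168534, plus strand: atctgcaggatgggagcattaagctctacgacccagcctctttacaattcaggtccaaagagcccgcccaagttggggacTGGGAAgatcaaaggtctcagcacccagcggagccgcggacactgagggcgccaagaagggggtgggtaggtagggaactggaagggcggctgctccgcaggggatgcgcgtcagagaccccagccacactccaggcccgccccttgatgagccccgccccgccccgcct

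The promoters of Ackr1 and Ackr2, the pair that was higher in HEC, shared none of these motifs. That of Ackr1 held TGGGAA from 211 and AGGTCA from 167 bases before the start, and that of Ackr2 held NF-kB matches from 224 bases (on both strands) and from 64 bases before it. Among the genes that were lower in HEC, Ackr3 held GCGTG from 120 and TATAAA from 8 bases before the start. Cxcr4 held GCGTG from 39 bases and overlapping TATAAA matches of both strands from 32 and 30 bases before it. Cxcl12 held TGGGAA from 170 bases before the start. Of 32851 promoters of the same length, 21.6% held TGGGAA, 14% AGGTCA, 28.2% GCGTG, 12.4% TATAAA and 7.3% the NF-kB consensus, and a match is a description of letters, not a site of binding. The promoters of Cxcr4 and Cxcl12 were rich in CpG, with 19 and 14 CpG and a GC content of 61.2% and 64.4%, against medians of 6 CpG and 52.4% over all promoters. Those of Ackr1, Ackr2 and Ackr3 held 3, 2 and 7 CpG.

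Signals are given as the deposited centred log2 values. They compare arrays for 1 gene, and a value near 0 says nothing of whether the gene was expressed, so no gene's level is set against another's. A difference of 1 is a doubling, and a gene was called where limma's moderated test, fitted on all 19938 genes and 19 arrays with Benjamini-Hochberg adjustment, gave an adjusted p under 0.05. The sorted populations carried their markers: 5 of 5 HEC markers measured were higher in HEC (median difference 4.02), and 7 of 7 capillary markers were lower (median -3.88). The HEC list holds Madcam1, whose protein was a sort marker of the mesenteric HEC, so its rise there was set by the sort. In peripheral capillary cells the HEC marker Glycam1 still averaged 3.41, beside 4.92 in peripheral HEC. Of 8 markers of all endothelium, 5 were lower in HEC, with a median of -0.45, beside a median of -0.01 over all genes. HEC also had more signal of lymphocyte markers, with 5 of 5 B cell genes (median 0.76) and 3 of 5 T cell genes (median 0.25) called higher. Of 10 genes that mark pericytes and smooth muscle, 9 were lower in HEC and 1 higher (median -1.12). Every arterial marker measured was called lower in HEC, from -1.05 (Dll4) to -3.73 (Efnb2). The mean signal of the arterial markers ran from 1.65 to 2.43 over the capillary arrays and from -0.67 to -0.49 over the HEC arrays. The part of these markers in the Ackr3, Cxcr4 and Cxcl12 differences was not tested.

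**Figure D1:**
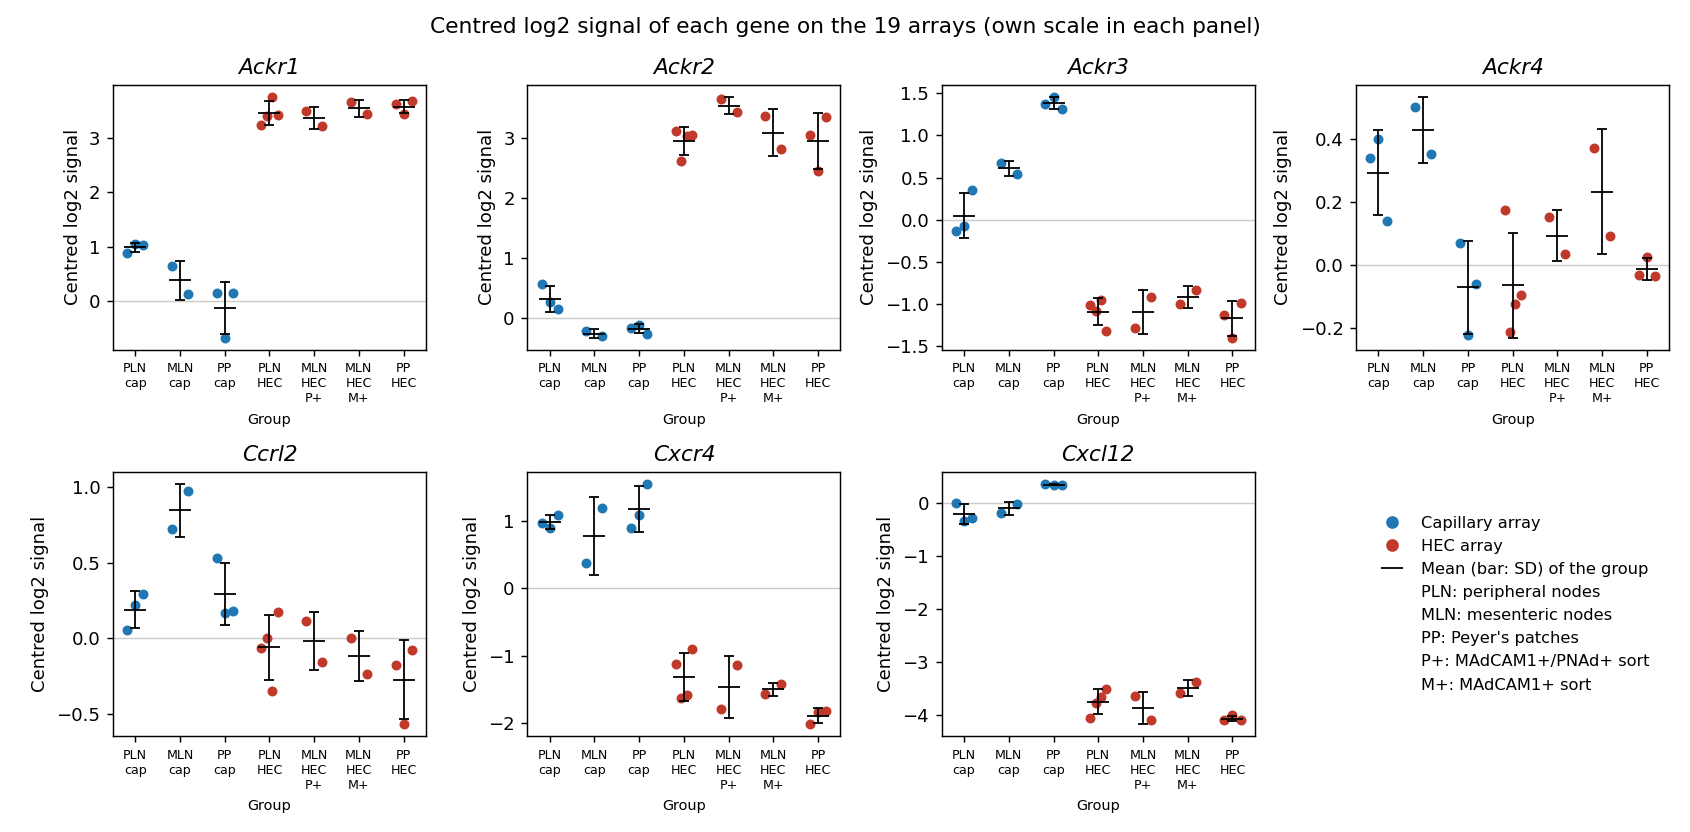
Centred log2 signal (vertical axis, own scale in each panel) of each of the 7 genes in the 7 groups (horizontal axis); points are arrays, horizontal marks are group means and bars are SD. The 11 HEC arrays of Ackr1 and Ackr2 lie above all 8 capillary arrays and those of Ackr3, Cxcr4 and Cxcl12 lie below them, while Ackr4 and Ccrl2 overlap.

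The first question was how HEC differ from capillary cells. Ackr1 and Ackr2 were higher in HEC by about 8-fold, and Cxcl12, Cxcr4 and Ackr3 were lower by 14.3-fold, 5.82-fold and 3.41-fold. Ccrl2 was lower by 1.49-fold and Ackr4 by 1.14-fold, which are small differences. Over the mean of the 3 tissues 7 of 7 genes were called, 2 higher and 5 lower, in a comparison in which 33.9% of all genes were called (18% higher, 15.9% lower). The values of the 11 HEC and 8 capillary arrays did not overlap for 5 of the 7 genes, which held for 8.82% of all genes.

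Ackr1, known as the Duffy antigen receptor for chemokines, binds many inflammatory chemokines and is a textbook marker of venular endothelium. In HEC its signal was 3.23, 3.40, 3.74 and 3.42 on the 4 peripheral arrays, 3.49 and 3.21 on the mesenteric MAdCAM1+/PNAd+ arrays, 3.65 and 3.42 on the MAdCAM1+ arrays, and 3.61, 3.43 and 3.67 in Peyer's patches. In capillary cells it was 0.89, 1.05 and 1.03 in peripheral nodes, 0.64 and 0.13 in mesenteric ones, and 0.15, -0.66 and 0.16 in Peyer's patches. All HEC arrays were high and close together, and the capillary arrays were low, with peripheral nodes above both other tissues on every array and overlapping values in mesenteric nodes and Peyer's patches. Averaged over the tissues, Ackr1 was higher in HEC by 3.07 ± 0.11 (SE; 8.38-fold; limma adjusted p = 5.895e-13). By tissue it was 2.46 ± 0.18 (peripheral), 3.06 ± 0.20 (mesenteric) and 3.69 ± 0.19 (Peyer's patches, 12.9-fold).

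Ackr2, which scavenges inflammatory CC chemokines and is best known from lymphatic endothelium, followed Ackr1 closely. Its HEC signals were 3.11, 2.61, 3.03 and 3.04 in peripheral nodes, 3.64 and 3.44 in the MAdCAM1+/PNAd+ sort, 3.37 and 2.81 in the MAdCAM1+ sort, and 3.04, 2.45 and 3.36 in Peyer's patches. Its capillary signals were 0.57, 0.26 and 0.15 in peripheral nodes, -0.21 and -0.30 in mesenteric ones, and -0.16, -0.11 and -0.26 in Peyer's patches. The lowest HEC array, Peyer's patches 2, was still well above the highest capillary array, peripheral nodes 1. The mean difference was 3.10 ± 0.11 (8.60-fold; limma adjusted p = 6.136e-13), made up of 2.62 ± 0.18 (peripheral), 3.57 ± 0.21 (mesenteric) and 3.12 ± 0.20 (Peyer's patches). Lymphatic endothelial markers moved both ways between HEC and capillary cells, with 2 of 7 higher and 3 of 7 lower, and their part in the Ackr2 values was not tested.

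Cxcl12, the chemokine of the axis, had the widest range of the 7 genes. Its HEC signals were -4.04, -3.77, -3.64 and -3.50 in peripheral nodes, -3.64 and -4.08 in the MAdCAM1+/PNAd+ sort, -3.59 and -3.37 in the MAdCAM1+ sort, and -4.09, -4.00 and -4.09 in Peyer's patches. Its capillary signals were 0.00, -0.34 and -0.27 in peripheral nodes, -0.18 and -0.01 in mesenteric ones, and 0.37, 0.34 and 0.34 in Peyer's patches. The groups were far apart, and the 3 capillary arrays of Peyer's patches were the highest of all and almost equal. The mean difference was -3.84 ± 0.08 (14.3-fold lower in HEC; limma adjusted p = 4.706e-16), which ranked 16 among the 19938 genes by size. Peyer's patches had the greatest difference, -4.41 ± 0.14 or 21.3-fold, beside -3.54 ± 0.13 (peripheral) and -3.57 ± 0.14 (mesenteric). Pericytes and reticular cells are known sources of Cxcl12. The mean signal of the pericyte and smooth muscle markers ran from -0.92 to -0.46 over the HEC arrays and from -0.12 to 1.13 over the capillary arrays, and its part in the Cxcl12 difference was not tested. Of 8 fibroblast and reticular markers, 1 was lower in HEC and 7 were not called (median -0.13).

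Cxcr4, the receptor that signals for Cxcl12, was lower in HEC as well. Its HEC signals were -1.13, -1.63, -1.59 and -0.90 in peripheral nodes, -1.79 and -1.14 in the MAdCAM1+/PNAd+ sort, -1.57 and -1.43 in the MAdCAM1+ sort, and -2.02, -1.83 and -1.82 in Peyer's patches. Its capillary signals were 0.97, 0.89 and 1.09 in peripheral nodes, 0.37 and 1.19 in mesenteric ones, and 0.89, 1.09 and 1.55 in Peyer's patches. Every capillary array was above 0 and every HEC array below it, with mesenteric capillary array 1 the lowest of the capillary arrays. The mean difference was -2.54 ± 0.13 (5.82-fold lower; limma adjusted p = 6.042e-11), made up of -2.30 ± 0.21 (peripheral), -2.26 ± 0.24 (mesenteric) and -3.07 ± 0.23 (Peyer's patches). Lymphocytes also carry Cxcr4. Of the lymphocyte markers, 5 of 5 B cell and 3 of 5 T cell genes were called higher in HEC, and their part in the Cxcr4 difference was not tested.

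Ackr3, the atypical receptor that binds Cxcl12 and Cxcl11, was lower in HEC and differed most by tissue among capillary cells. Its HEC signals were -1.01, -1.09, -0.95 and -1.32 in peripheral nodes, -1.28 and -0.91 in the MAdCAM1+/PNAd+ sort, -1.0 and -0.83 in the MAdCAM1+ sort, and -1.13, -1.40 and -0.98 in Peyer's patches. Its capillary signals were -0.13, -0.07 and 0.35 in peripheral nodes, 0.67 and 0.54 in mesenteric ones, and 1.38, 1.45 and 1.31 in Peyer's patches. The capillary arrays of the 3 tissues did not overlap each other, and all lay above the HEC arrays. Between pairs of these tissues, 17.6% to 23.8% of all genes did not overlap among capillary cells. The mean difference was -1.77 ± 0.08 (3.41-fold lower; limma adjusted p = 1.388e-11). It grew from -1.14 ± 0.13 in peripheral nodes over -1.61 ± 0.15 in mesenteric ones to -2.55 ± 0.14 in Peyer's patches.

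Ccrl2, which binds chemerin and presents it without signalling, differed less. Its signal ran from -0.57 to 0.17 over the 11 HEC arrays and from 0.06 to 0.97 over the capillary arrays, the mesenteric capillary arrays being the highest at 0.72 and 0.97. HEC and capillary arrays overlapped in peripheral nodes and did not overlap in the other tissues. Such separation was common: it held for 37.1% of all genes on the mesenteric arrays and for 27% on those of Peyer's patches. The mean difference was -0.58 ± 0.09 (1.49-fold lower; limma adjusted p = 4.947e-05). The mesenteric difference was -0.92 ± 0.16 (adjusted p = 0.0005562) and that of Peyer's patches -0.57 ± 0.15 (adjusted p = 0.0134). The peripheral one, -0.25 with an interval from -0.55 to 0.05, was not called (adjusted p = 0.215). The Peyer's patch call was lost without capillary array 1 (-0.45, adjusted p = 0.07298) or without HEC array 2 (-0.42, adjusted p = 0.07245).

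Ackr4, which scavenges Ccl19, Ccl21 and Ccl25, stood at the edge of the test. Its signal ran from -0.21 to 0.37 over the HEC arrays and from -0.22 to 0.50 over the capillary arrays, so that the groups overlapped. The mean difference was -0.19 ± 0.07 (1.14-fold lower; limma adjusted p = 0.03379), and it was -0.36 ± 0.11 in peripheral nodes (adjusted p = 0.02033). The mesenteric difference of -0.27 (interval -0.52 to -0.01) and that of Peyer's patches, 0.06 (interval -0.18 to 0.30), were not called. The call on the mean was lost without any 1 of 11 arrays (-0.19 to -0.16, adjusted p 0.05025 to 0.1214): peripheral HEC 2, 3 or 4, peripheral capillary 1 or 2, mesenteric capillary 1, MAdCAM1+/PNAd+ 2, MAdCAM1+ 4, Peyer's patch capillary 1 or 3, or Peyer's patch HEC 1. The peripheral call was lost without peripheral HEC 2 or 3 or peripheral capillary 1 or 2 (-0.34 to -0.30, adjusted p 0.05097 to 0.1053). Without peripheral capillary arrays 1 and 2 together, Ackr4 was at -0.14 on the mean (adjusted p = 0.2101) and -0.20 in peripheral nodes (adjusted p = 0.4445).

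In single tissues 6 of 7 genes were called in each, 2 higher and 4 lower. Of all genes 24.6% were called in peripheral nodes (13.1% higher, 11.4% lower), 15.2% in mesenteric ones (7.87% higher, 7.31% lower) and 19.5% in Peyer's patches (8.9% higher, 10.6% lower).

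**Figure D2:**
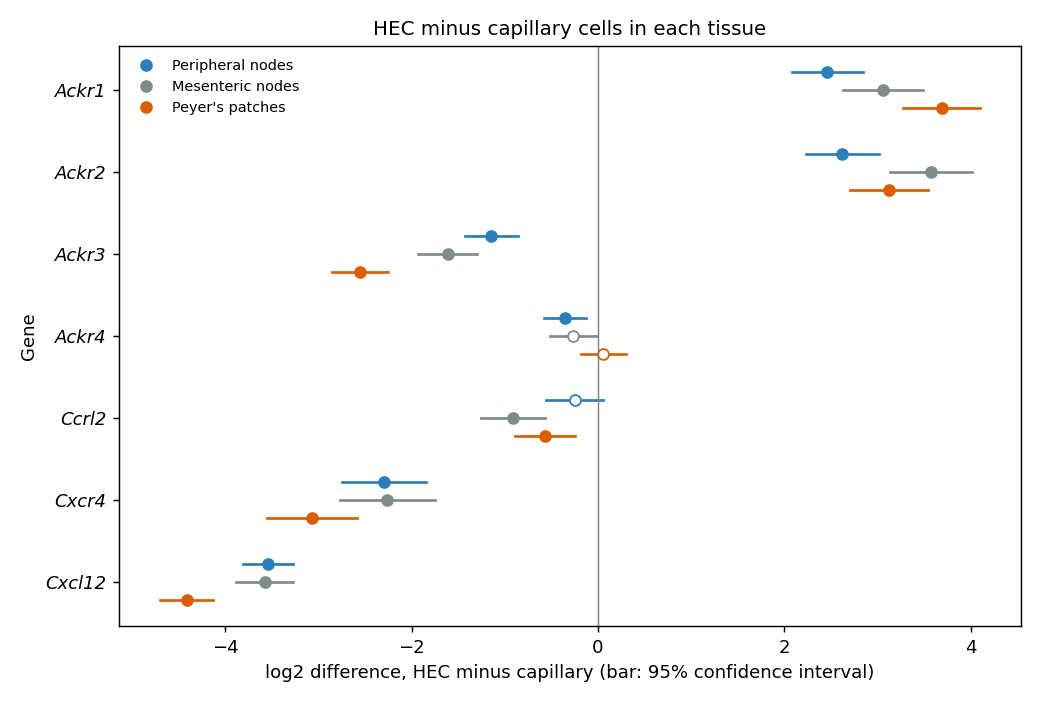
Difference in log2 signal, HEC minus capillary (horizontal axis), of each gene (vertical axis) in each tissue; bars are 95% confidence intervals from the limma fit, and filled points were called at an adjusted p under 0.05. Ackr1 rises from 2.46 in peripheral nodes to 3.69 in Peyer's patches, and Ackr3 goes from -1.14 to -2.55.

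The next question was whether a cell type differs between tissues. Among HEC no gene of the 7 was called in any comparison of tissues. The limma counts were 0 of 7 for Peyer's patches against peripheral nodes (6.65% of all genes called), 0 of 7 for mesenteric against peripheral nodes (2.69%) and 0 of 7 for Peyer's patches against mesenteric nodes (1.2%), with 2, 2 and 1 genes at an unadjusted p under 0.05, beside 24.6%, 13.9% and 12% of all genes. For Peyer's patches minus peripheral nodes the interval was -0.26 to 0.50 for Ackr1, -0.39 to 0.39 for Ackr2 and -0.36 to 0.21 for Ackr3. The same interval was -1.03 to -0.13 for Cxcr4 (difference -0.58, limma adjusted p = 0.1172) and -0.59 to -0.05 for Cxcl12 (difference -0.32, adjusted p = 0.1421), and both intervals lay below 0. With array quality weights these genes were called (Cxcr4 -0.67, adjusted p = 0.0005789; Cxcl12 -0.32, adjusted p = 0.002844). Calls were common under that setting, with 11209 of all 19938 genes called, against 1326 without the weights. The estimation of the weights also stopped before full convergence, so these calls say little of Cxcr4 and Cxcl12 in particular.

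Of the 7 genes 0 were called by limma between the MAdCAM1+/PNAd+ and MAdCAM1+ sorts of mesenteric HEC (0.0201% of all genes called). Cxcl12 (-0.38, interval -0.73 to -0.03) was the 1 gene with an unadjusted p under 0.05, beside 1.68% of all genes. The arrays of the sorts did not overlap for Ackr2 and Cxcl12, 2 of the 7 genes, beside 28.4% of all genes. With 2 arrays in each sort the intervals were wide, and that of Ackr2 ran from -0.06 to 0.96.

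Among capillary cells, by contrast, Ackr1 was lower and Ackr3 and Cxcl12 were higher in Peyer's patches than in peripheral nodes. These were 3 of the 7 genes (2 higher, 1 lower), where 4.64% of all genes were called (2.4% higher, 2.24% lower). The difference was -1.11 ± 0.19 for Ackr1 (2.15-fold lower, limma adjusted p = 0.001577). It was 1.33 ± 0.14 for Ackr3 (2.52-fold higher; adjusted p = 1.352e-05) and 0.56 ± 0.14 for Cxcl12 (1.47-fold higher; adjusted p = 0.02135). Ackr2 (-0.50, interval -0.91 to -0.09) and Ackr4 (-0.36, interval -0.60 to -0.12) were not called, nor were Ccrl2 (0.10) and Cxcr4 (0.19). The arrays of the tissues did not overlap for 5 of the 7 genes, the called ones and Ackr2 and Ackr4, beside 17.6% of all genes. The Cxcl12 call was lost without any 1 of 5 arrays (0.49 to 0.56, adjusted p 0.06111 to 0.1153), namely peripheral capillary 2 or 3 and each of the Peyer's patch capillary arrays.

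Markers of other cells also differed between these capillary groups. The mean signal of 5 HEC markers was 1.40, 1.08 and -0.05 on peripheral capillary arrays 1, 2 and 3 and between -0.98 and -0.40 in Peyer's patches. That mean hides unlike markers. Glycam1 ran from 1.70 to 4.42 over the peripheral capillary arrays, array 3 included, beside at most 0.03 in mesenteric and -0.66 in Peyer's patch ones. Gcnt1 averaged -0.41 in peripheral capillary cells, against -1.03 (mesenteric) and -1.29 (Peyer's patches). Madcam1 went the other way, at -0.96 against -0.76 and 0.01. The Ackr1 signal on array 3 was 1.03, beside 0.89 and 1.05 on arrays 1 and 2. The part of the HEC markers in the Ackr1 difference was not tested. Without arrays 1 and 2 the Ackr1 difference was -1.15, with 1 array left in that group (adjusted p = 0.06178), and Cxcl12 was 0.62 (adjusted p = 0.1609).

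Of 8 arterial markers 5 were higher in the capillary cells of Peyer's patches than in those of peripheral nodes, and their mean signal ran from 2.37 to 2.43 against 1.65 to 1.72. The list includes Bmx, Hey1 and Efnb2, which are among the genes most like Ackr3 or Cxcl12 in pattern, and its part in the Ackr3 and Cxcl12 differences was not tested. Pericyte and smooth muscle markers went the other way, with 4 of 10 lower and 1 higher in Peyer's patches, and means of -0.12 to 0.19 against 0.40 to 1.13. The part of the pericyte markers in the Cxcl12 difference between these tissues was not tested. Intestinal epithelial markers had means of 0.21 to 0.89 against -0.05 to 0.15, with 1 of 6 called higher, and their part was not tested.

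**Figure D3:**
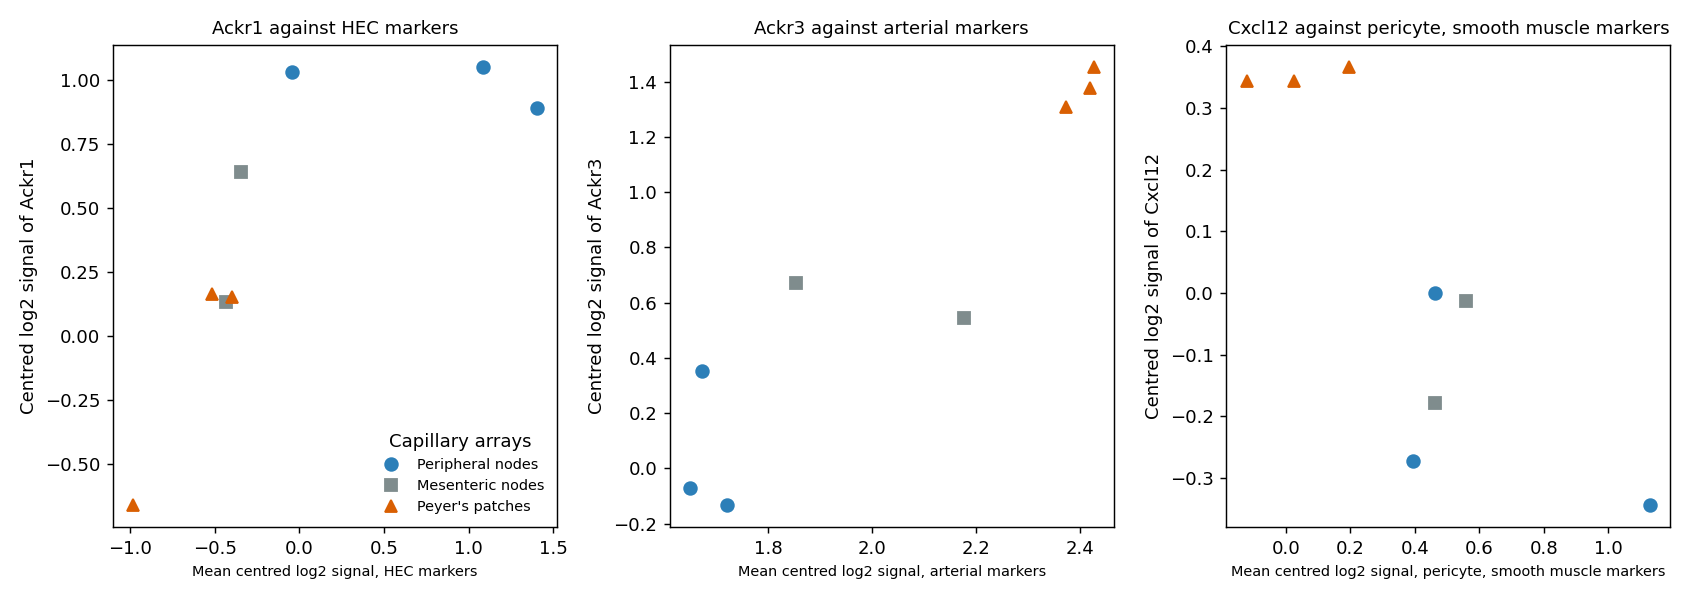
Centred log2 signal of Ackr1, Ackr3 and Cxcl12 (vertical axes) on the 8 capillary arrays against the mean centred log2 signal of marker lists (horizontal axes), with symbols for the tissue. Peripheral array 3 has an Ackr1 signal of 1.03 at an HEC marker mean of -0.05, and the 3 Peyer's patch arrays have the highest Cxcl12 signal at the lowest pericyte marker means. Within the HEC marker mean, Glycam1 was at least 1.70 on every peripheral array.

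The mean of mesenteric capillary cells lay between those of the other tissues for Ackr1, Ackr3 and Cxcl12. It was the highest of the 3 for Ackr4 (0.43) and Ccrl2 (0.85) and the lowest for Ackr2 (-0.25) and Cxcr4 (0.78). Against peripheral nodes 0 of 7 genes were called by limma (0.291% of all genes), and 4, beside 5% of all genes, had an unadjusted p under 0.05: Ackr1 (-0.60), Ackr2 (-0.58), Ackr3 (0.56) and Ccrl2 (0.66). Against mesenteric nodes, 1 of 7 was called in Peyer's patches (1.86% of all genes), Ackr3 at 0.77 ± 0.16 (limma adjusted p = 0.01321). That call was lost without mesenteric capillary 1 (adjusted p = 0.07702) or 2 (0.1885) or Peyer's patch capillary 2 (0.06169), at differences of 0.71 to 0.84. Ackr4 (-0.50, adjusted p = 0.05687), Ccrl2 (-0.56), Cxcl12 (0.45) and Ackr1 (-0.50) were not called. Ackr4 was called without peripheral HEC 1 (adjusted p = 0.034) or without Peyer's patch capillary 1 (-0.57, adjusted p = 0.04359).

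**Figure D4:**
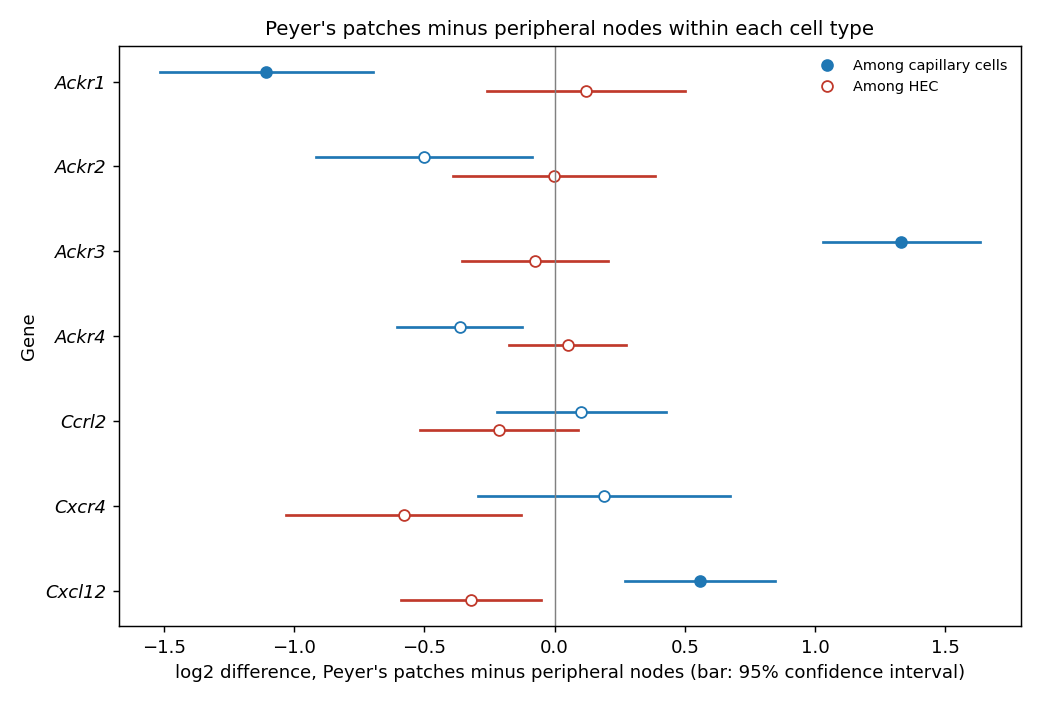
Difference in log2 signal, Peyer's patches minus peripheral nodes (horizontal axis), of each gene (vertical axis) among capillary cells and among HEC; bars are 95% confidence intervals from the limma fit, and filled points were called at an adjusted p under 0.05. Among capillary cells Ackr1 is at -1.11, Ackr3 at 1.33 and Cxcl12 at 0.56, and none of the HEC points was called.

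Whether the tissue difference itself differed between capillary cells and HEC was tested with the interaction, the HEC to capillary difference in one tissue minus that in another. It rests on the same arrays as the comparisons above. Between Peyer's patches and peripheral nodes 3 of 7 genes were called (4.05% of all genes): Ackr1 at 1.23 ± 0.26 (limma adjusted p = 0.01248), Ackr3 at -1.41 ± 0.19 (adjusted p = 0.0003305) and Cxcl12 at -0.88 ± 0.19 (adjusted p = 0.01126). These 3 calls held when any 1 array was left out. Without peripheral capillary arrays 1 and 2, Ackr1 was at 1.27 (adjusted p = 0.09094). Cxcr4 (-0.77, interval -1.43 to -0.11), Ackr4 (0.41), Ackr2 (0.50) and Ccrl2 (-0.32) were not called.

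Between mesenteric and peripheral nodes 0 of 7 genes were called by limma (0.416% of all genes), and 4, beside 6.29% of all genes, had an unadjusted p under 0.05, among them Ackr2 at 0.95 (interval 0.36 to 1.53). Between Peyer's patches and mesenteric nodes 1 of 7 was called (0.752% of all genes), Ackr3 at -0.94 ± 0.21 (adjusted p = 0.04446), and Cxcl12 was at -0.84 ± 0.20 (adjusted p = 0.06989). The Ackr3 call was lost without any 1 of 14 arrays (-1.0 to -0.82, adjusted p 0.0523 to 0.2348): both mesenteric capillary arrays, MAdCAM1+/PNAd+ 2, MAdCAM1+ 3 or 4, peripheral capillary 2, peripheral HEC 1, 2 or 3, each Peyer's patch capillary array, or Peyer's patch HEC 1 or 2. Cxcl12 was called without MAdCAM1+/PNAd+ 2 (-0.95, adjusted p = 0.03372) or peripheral HEC 1 (adjusted p = 0.03639).

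Ordering the 7 groups of each gene by their mean gave 42 pairs of neighbours, of which 6 were called. For Ackr1 the 1 called step, of 2.36, lay between the lowest HEC group (MAdCAM1+/PNAd+) and peripheral capillary cells (limma adjusted p = 4.794e-07; 16.1% of all genes called for that pair). The HEC groups above it, from Peyer's patches over the MAdCAM1+ sort and peripheral nodes, differed by at most 0.10 from one neighbour to the next. For Ackr2 the order ran from the MAdCAM1+/PNAd+ sort over the MAdCAM1+ sort, peripheral and Peyer's patch HEC to peripheral, Peyer's patch and mesenteric capillary cells. Its 1 called step was 2.62, from Peyer's patch HEC to peripheral capillary cells (adjusted p = 2.807e-08; 16.1%).

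For Cxcl12 the order began with Peyer's patch, mesenteric and peripheral capillary cells and ended with Peyer's patch HEC. Its 1 called step, of 3.27, lay between peripheral capillary cells and the MAdCAM1+ sort (limma adjusted p = 1.648e-10; 12.8% of all genes called). Cxcr4 ran from Peyer's patch over peripheral to mesenteric capillary cells and then by 1 called step of 2.09 to peripheral HEC (adjusted p = 5.473e-06; 20.1%), with Peyer's patch HEC again lowest. Ackr3 had a called step of 0.97 between peripheral capillary cells and the MAdCAM1+ sort (adjusted p = 0.0003279; 12.8%) and the step of 0.77 between Peyer's patch and mesenteric capillary cells given above. For Ackr4 and Ccrl2 no step between neighbours was called. Of the pairs of groups that enter no comparison above, 0.943% of all genes were called between peripheral HEC and the MAdCAM1+/PNAd+ sort, 1.86% between peripheral HEC and the MAdCAM1+ sort, 0.386% and 0.777% between Peyer's patch HEC and the MAdCAM1+ and MAdCAM1+/PNAd+ sorts, and 25.7% between peripheral HEC and Peyer's patch capillary cells.

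Of all pairs of the 7 genes, Ackr1 and Ackr2 had one of the closest patterns: the root mean square distance of their 7 centred group means was 0.30, against 0.51 for Ackr3 and Cxcr4 and 0.66 for Cxcr4 and Cxcl12. The closest pair, Ackr4 and Ccrl2 at 0.27, were the genes that varied least. By the same measure the 3 genes most like Ackr1 were Lrg1 (0.24), Cd55 (0.26) and Gas7 (0.27). Those most like Ackr2 were Ubd (0.21), Nxph1 (0.23) and Cd63 (0.23). Ackr3 was matched by Bmx (0.09), Syne2 (0.09) and Tmem100 (0.15), and Cxcr4 by Ceacam1 (0.15), Notch4 (0.17) and Nrp1 (0.19). For Cxcl12 they were Hey1 (0.18), Sema3g (0.23) and Efnb2 (0.23), and none of these was among the nearest 3 after a further quantile normalization. For Ccrl2 they were Kank4 (0.08), B4galt4 (0.09) and Ifi35 (0.09).

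Genes next to the members on the chromosome differed little, except those of Ackr4. The neighbours of Ackr1, Ackr2, Ackr3, Ccrl2, Cxcr4 and Cxcl12 differed between HEC and capillary cells by -0.25 to 0.16. Of these, limma called Cadm3 beside Ackr1 (-0.25, adjusted p = 0.01693). It also called Higd1a (-0.25, adjusted p = 0.04583) and Cyp8b1 (0.16, adjusted p = 0.03475) beside Ackr2. On chromosome 9, Acad11 and Dnajc13 have the nearest start positions before and after Ackr4, and overlap with it was not examined. They were higher in HEC by 0.96 ± 0.10 (limma adjusted p = 8.878e-07) and 0.88 ± 0.12 (adjusted p = 1.431e-05), while Ackr4 was at -0.19.

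The other genes of the pathway were counted on lists for the same comparison of HEC with capillary cells. Of all genes 33.9% were called in it (18% higher, 15.9% lower). The counts below describe the lists beside these shares, and a count near them says nothing particular of a list. Among 20 ligands of the atypical receptors 1 rose and 5 fell (median -0.05). Cxcl11, a ligand of Ackr3, was higher in HEC by 1.65 ± 0.15 (limma adjusted p = 1.012e-07). Adm, the peptide adrenomedullin, fell by 0.53, Rarres2, which encodes chemerin, fell by 0.49, and the eotaxin Ccl11 fell by 0.32. Among 16 other chemokines 5 rose and 2 fell. Cx3cl1, the membrane-bound chemokine fractalkine, fell by 2.96 ± 0.10 (adjusted p = 1.785e-13), and Pf4 (1.67), Cxcl10 (1.56) and Ccl20 (1.27) rose.

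Of 16 classical chemokine receptors 4 rose and the other 12 were not called (median 0.02). Ccr7, the homing receptor for Ccl19 and Ccl21, was at 0.94 ± 0.09 (limma adjusted p = 3.565e-07), Ccr10 at 0.82, and Cxcr5, the B cell follicle receptor, at 0.53. Ccr6 was at 0.17 (adjusted p = 0.04839) and lost its call without any 1 of 15 arrays (0.14 to 0.19). The B cell marker mean was 0.14 to 0.94 over the HEC arrays and -0.15 to 0.21 over the capillary arrays, and its part in the Ccr7 and Cxcr5 differences was not tested. Of 6 receptors for chemerin and adrenomedullin 2 fell: Ramp3, a partner of the adrenomedullin receptor, by 2.51 ± 0.13 (adjusted p = 4.434e-11) and Cmklr1, the signalling receptor for chemerin, by 0.38. The Cmklr1 difference was called in peripheral nodes, at -0.83, and not in the others (-0.26 mesenteric, -0.04 Peyer's patches). The mesenteric value averages unlike sorts: the signal was -0.76 in the MAdCAM1+/PNAd+ sort and 0.13 in the MAdCAM1+ sort, beside -0.05 in mesenteric capillary cells. The Cmklr1 interaction of Peyer's patches minus peripheral nodes was called (0.80, limma adjusted p = 0.0239). Calcrl (0.16) and Ramp2 (-0.02), which together form another adrenomedullin receptor, were not called.

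Among 14 partners and processing genes of Cxcl12 and Cxcr4, 6 rose and 3 fell. Cd74, which binds the cytokine Mif, rose by 1.30 ± 0.13 (limma adjusted p = 2.684e-07), Mif itself by 0.72 and the adhesion molecule Vcam1 by 1.02, while the basement membrane proteoglycan Hspg2 fell by 0.81. Among 26 genes of receptor signalling and internalisation 5 rose and 7 fell. Arrb1, a beta-arrestin that couples receptors to uptake, rose by 1.43 ± 0.08 (adjusted p = 9.561e-11), and the G protein regulators Rgs16 (-1.35), Rgs4 (-1.04) and Rgs3 (-0.69) fell.

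A list of 18 genes held transcription factors linked to these genes in endothelium, and with them the receptor Notch1 (-0.98). On it 3 rose and 11 fell, with a median of -0.85 beside -0.01 over all genes. Hey1, a target of Notch signalling, fell by 3.68 ± 0.11 (limma adjusted p = 3.634e-14), Sox17 by 1.70 and Hey2 by 1.54, all of which are linked to arterial identity. Nr2f2, the venous regulator COUP-TFII, rose by 1.97 ± 0.09 (adjusted p = 9.698e-12).

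**Figure D5:**
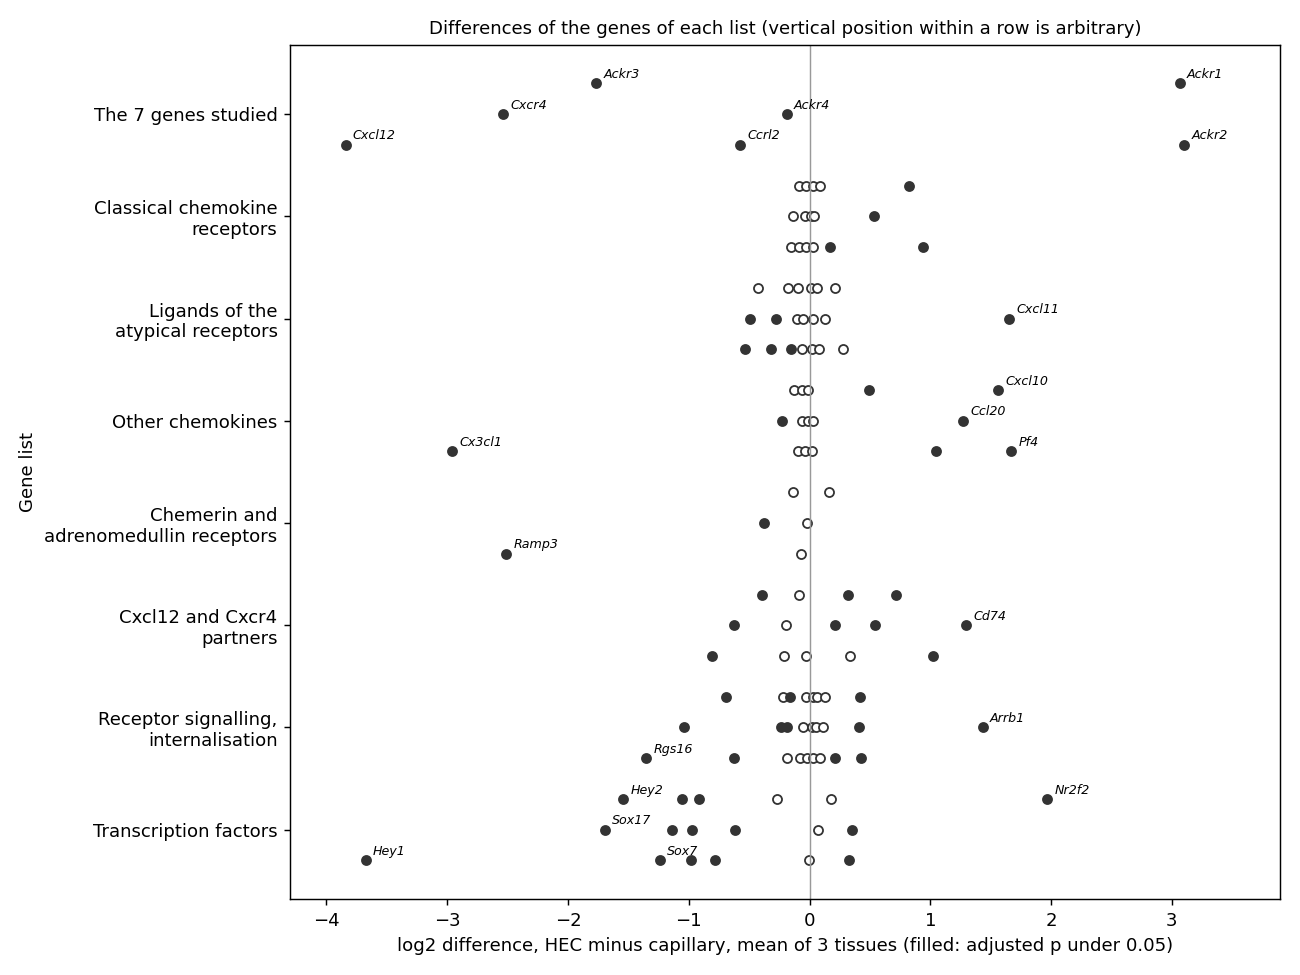
Difference in log2 signal, HEC minus capillary, mean of the 3 tissues (horizontal axis), of the 7 genes and of the genes of each pathway list (vertical axis); filled points were called by limma at an adjusted p under 0.05. Cxcl12 (-3.84), Hey1 (-3.68), Cx3cl1 (-2.96) and Ramp3 (-2.51) lie far to the left, and Ackr1 (3.07) and Ackr2 (3.10) to the right of all listed genes.

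For some pathway genes the interaction of these tissues, Peyer's patches minus peripheral nodes, was called as well. Among chemokines the interaction was 2.79 for Cxcl9, -2.57 for Pf4 and 1.25 for Cx3cl1. Cxcl9 averaged -2.07 in Peyer's patch capillary cells against 0.72 in peripheral ones, and 0.52 against 0.51 in HEC. Rgs16 (1.84), Ramp3 (1.53), Gng2 (1.15) and Nr2f2 (1.17) had positive and Gata2 (-1.27), Hey2 (-1.09) and Foxc1 (-1.04) negative interactions, all called by limma. The Hey2 and Foxc1 calls were lost without any 1 of 7 and of 14 arrays. Without peripheral capillary arrays 1 and 2 the calls of Cx3cl1 (1.13, adjusted p = 0.08492), Ramp3 (1.37, adjusted p = 0.0952), Gng2 (0.85, adjusted p = 0.1267), Nr2f2 (0.99, adjusted p = 0.07532) and Gata2 (-1.08, adjusted p = 0.1165) were lost too, as were those of Hey2 and Foxc1, with 1 array left in that group.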

How the data were processed

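The labels describe amplified and labelled RNA of sorted endothelial cells on Affymetrix arrays. The deposited values are log2 signals made with RMA (background correction, quantile normalization and probe set summary) and Partek by the authors, per the submitters' processing notes, which name no versions. They had been centred for each probe set on a baseline that is not given in the sources used here, so differences between arrays are known and absolute levels and detection are not. The number of arrays, 2 to 4 for each group, limits the precision; read depth does not apply.

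The platform annotation gave a single symbol for 21789 of 28856 probe sets, several for 1621 and none for 5446, and 21698 matched RefSeq by Entrez identifier. Probe sets of a gene were averaged, giving 19938 genes. Group means were fitted on all 19 arrays with limma 3.58.1 in R 4.3.3 (12 residual and 4.617 prior degrees of freedom), and two-sided p-values were adjusted for each of 14 comparisons and 21 pairs of groups over all genes by the Benjamini-Hochberg method, at a threshold of 0.05. The fit was tested on simulated data. Mesenteric HEC were the mean of both sorts.

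The named genes are the 7 members, the 3 nearest genes of each member whose group means span at least 1 on the log2 scale (predicted genes, small RNAs and odorant and antigen receptors left out), the 4 called pathway genes with the greatest differences on each list, and list genes with a called interaction of at least 1. The members, the 19 lists (194 of 206 genes measured; the others were not analysed here) and the tests were chosen with earlier results of these data known. A total of 29 alternatives were tried. Marker list values for each array are means over the list.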

Additional observations from a re-analysis of the deposited data

Results flagged for a closer look

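The HEC to capillary difference of 3 genes was not the same in Peyer's patches and peripheral nodes by limma's interaction test. It was greater in Peyer's patches by 1.23 for Ackr1 (3.69 against 2.46; adjusted p = 0.01248), and more negative by the interaction of -1.41 for Ackr3 (-2.55 against -1.14; adjusted p = 0.0003305) and of -0.88 for Cxcl12 (-4.41 against -3.54; adjusted p = 0.01126). For Ackr3 a difference was also called between Peyer's patches and mesenteric nodes, at -0.94 (-2.55 against -1.61; limma adjusted p = 0.04446). That call was not stable: it was lost under 19 of 29 alternatives, 14 of which left out 1 array. No array of peripheral HEC, the one group of 4 arrays, passed the critical value of Dixon's test for any of the 7 genes. The widest gap, 0.8285 of the range for Ackr2 (array 2), fell only just short of it.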

How the results depend on the processing

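Under 29 alternatives the 7 genes gave 2842 values, of which 2767 kept their side of the threshold, 50 fell short of it and 25 newly passed it. The sign changed in 0 called values. It turned in 46 of the 2767, which were not called under either setting. With 1 array left out the number of genes called was 6 to 7 for HEC against capillary cells over the 3 tissues, 5 to 6 in peripheral nodes, 6 in mesenteric nodes and 5 to 6 in Peyer's patches, and 0 for each comparison of HEC between tissues and of the mesenteric sorts. Among capillary cells it was 2 to 3 for Peyer's patches against peripheral nodes, 0 for mesenteric against peripheral nodes and 0 to 2 for Peyer's patches against mesenteric nodes. For the interactions it was 3 for Peyer's patches minus peripheral nodes, 0 for mesenteric minus peripheral nodes and 0 to 1 for Peyer's patches minus mesenteric nodes, and 5 to 6 neighbours in the order of levels were called. Where 1 mesenteric capillary array is left out, the other is assumed to vary like the other groups.

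The interaction of Peyer's patches minus mesenteric nodes, 1 gene called, fell to 0 with every probe set tested singly, with arrays centred on their median and with only the groups compared, and rose to 4 with array quality weights. These weights also gave 2 genes in HEC of Peyer's patches against peripheral nodes and 4 against mesenteric nodes (0 without them), 3 in capillary cells of Peyer's patches against mesenteric nodes (1 without) and 5 in the interaction of Peyer's patches minus peripheral nodes (3 without). Their estimation stopped before full convergence. The weights also raised the number called among all 19938 genes. It rose from 1326 to 11209 for HEC of Peyer's patches against peripheral nodes and from 239 to 7138 against mesenteric nodes. For capillary cells of Peyer's patches against mesenteric nodes it rose from 370 to 790. For the interaction it rose from 808 to 6443 (Peyer's patches minus peripheral nodes) and from 150 to 1703 (minus mesenteric nodes). A further quantile normalization gave 2 genes in HEC of mesenteric against peripheral nodes (Ackr2 0.49, adjusted p = 0.04637; Cxcl12 0.31, adjusted p = 0.03487), 4 in capillary cells of Peyer's patches against mesenteric nodes and 1 in the interaction of mesenteric minus peripheral nodes (Ackr2 1.08, adjusted p = 0.02513). It left 1 gene in the interaction of Peyer's patches minus mesenteric nodes, but with Cxcl12 called (-0.80, adjusted p = 0.00292) and Ackr3 not (-0.82, adjusted p = 0.1208). Without peripheral capillary arrays 1 and 2 the capillary comparison of Peyer's patches with peripheral nodes fell from 3 to 1, with 1 array left in that group. The causes were not tested.

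Whether arrays with the same replicate number belong together could not be decided. Over 41 pairs of arrays with the same number the correlation of deviations from the group means ran from -0.43 to 0.56. Of these pairs, 17 were above 0.1, and 4 of 19 arrays correlated best with their own number. Deviations in the smallest groups mirror each other, so these correlations are not independent, and a shared sort or batch was not tested. With the replicate number as a block, the interaction of Peyer's patches minus mesenteric nodes fell to 0 genes (Ackr3 -0.91, adjusted p = 0.1017), and Ackr4 over the 3 tissues was at -0.16 (adjusted p = 0.08673).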
